A study of Sus scrofa with 21 samples.

Results

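Protamines and transition proteins are the small basic proteins that replace histones on the DNA of elongating spermatids, and 5 genes were followed here: PRM1, PRM2 and PRM3 (protamines 1, 2 and 3) and TNP1 and TNP2 (transition proteins 1 and 2). The members were the genes whose Ensembl pig identifier carries one of these symbols, and all 5 were found among the 25880 genes counted. Testis RNA of 21 boars was sequenced, each library being 1 boar, to ask how testis transcripts differ with sperm hyperactive motility, the vigorous swimming pattern that sperm acquire before fertilization. All animals were purebred artificial insemination boars whose testes were frozen after slaughter, so the tissue was taken at another time than the ejaculates whose sperm were scored, and the sources name no treatment for any group. Ages by group are not given in the sources used here.

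The groupings come from the deposited labels. Contrast (i) compared 4 Landrace boars with low (L1 to L4) and 4 with high hyperactivity (L5 to L8) on the day of ejaculation, day 0. Contrast (iii) compared 4 Landrace boars with a low change in hyperactivity (L2, L9, L10 and L12) and 3 with a high change (L7, L13 and L15) between day 0 and 96 h of liquid storage at 18 °C. The contrasts share boars L2 (low in both) and L7 (high in both), and are therefore not independent. Of 8 Duroc boars, D1 to D5 are labelled high and D6, D7 and D9 low, but the labels conflict with the study's own grouping for each Duroc boar except D5, so the direction of any Duroc difference is by label only and unsettled. Finally, the 8 Duroc were compared with the 13 Landrace libraries.

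In mammals, round spermatids transcribe these genes, hold the messenger RNAs in a repressed state for days, and translate them once the nucleus begins to elongate. The transition proteins act first: they take the place of histones after these have been acetylated and evicted, and are then themselves replaced by protamines, arginine-rich proteins that coil the DNA into a compact, silent state. PRM1 encodes the protamine that dominates boar sperm chromatin. PRM2 encodes a precursor that is shortened by cleavage as it binds DNA, and mature protamine 2 is scarce in boar sperm. PRM3 encodes an acidic protein that in the mouse lies in the spermatid cytoplasm, so it is a protamine by the position of its gene more than by its chemistry.

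Of the members, 4 lie side by side on chromosome 3 (RefSeq annotation of Sscrofa11.1), within 10444 bases from the start of PRM1 to the end of TNP2. PRM1 (ENSSSCG00000021337) spans chr3:31861087-31861529, PRM2 (ENSSSCG00000024307) chr3:31864350-31864959, PRM3 (ENSSSCG00000035607) chr3:31865159-31866717 and TNP2 (ENSSSCG00000027300) chr3:31868517-31871530. The genes on either side are RMI2 and SOCS1. TNP1 (ENSSSCG00000016179) stands apart at chr15:119037492-119038099. PRM2 and PRM3 are the closest pair, and reads were counted by strand.

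Between 41358671 and 125576407 reads per library fell in genes, and the members together took 0.412% to 0.969% of them. The lowest count of any member in any library was 919 reads, for PRM2 in L13, so counting error was small beside the differences between boars. The tissue label was checked against spermatid transcripts: the 13 late spermatid markers with an identifier, among them ODF1, ODF2, AKAP4 and SMCP, summed to 9543 to 20508 CPM (counts scaled to a common library size) in every library, and none of the 13 was at 0 throughout. Levels below are CPM after TMM scaling of the 21 libraries together, which removes overall shifts in composition between libraries. In bulk tissue, fewer spermatids and less messenger RNA per spermatid cannot be told apart.

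TNP1 was the most abundant member by a wide margin. It had the second highest mean level of all 25880 genes (rank 2), with a median of 5923 CPM over the 21 boars and a range from 3363 in L15 to 8262 in L5. PRM1 ranked 48, with a median of 1406 CPM and a range from 465 in L13 to 2270 in L1. The other members were far lower. TNP2 ranked 1681 (median 152 CPM, 52.6 to 285), PRM3 ranked 3640 (median 54.2 CPM, 18.1 to 119) and PRM2 ranked 5742 (median 25.2 CPM, 10.8 to 44.8). PRM3 varied most between boars, 6.58-fold from the lowest to the highest, followed by TNP2 with 5.42-fold, PRM1 with 4.88-fold and PRM2 with 4.13-fold. TNP1 varied least, 2.46-fold. Boar L13 was the lowest of the 21 for PRM1, PRM2 and TNP2, and the second lowest for TNP1.

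To compare levels between genes, CPM was divided by the length of the RefSeq gene span in kb, which includes introns. On this scale TNP1 exceeded PRM1 in 21 of 21 libraries, by a median of 2.93-fold, and PRM1 exceeded TNP2 in 21 of 21, by a median of 60.1-fold. The size of the latter depends on the spans, 443 bases for PRM1 and 3014 with introns for TNP2. In raw counts the TNP2 to PRM1 ratio had a median of 0.113 (0.0708 to 0.167). The ranges per kb of TNP1, of PRM1 and of the other members did not overlap. Per kb, the order of the 3 lower members was not fixed. TNP2 exceeded PRM2 in 13 of 21 libraries (median ratio 1.06) and PRM2 exceeded PRM3 in 14 of 21 (median ratio 1.27), with overlapping ranges. Before this division TNP2 (52.6 to 285 CPM) lay above PRM2 (10.8 to 44.8 CPM) in every library. Their near tie thus rests on the spans, 3014 bases for TNP2 and 610 for PRM2. The median levels were 9741 CPM per kb for TNP1, 3175 for PRM1, 50.5 for TNP2, 41.3 for PRM2 and 34.8 for PRM3.

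The PRM1 to PRM2 ratio, taken between the raw counts of 1 library and so free of any scaling, was far above 1 in every boar. Its median over the 21 boars was 47.9, its lowest value 25.8 in D6 and its highest 84.1 in L12, a spread of 3.26-fold. Landrace boars averaged 53.5 ± 16.9 (SD, n = 13) and Duroc boars 49.9 ± 16.8 (SD, n = 8), a difference of -0.10 on the log2 scale that was small beside the spread within each breed (two-sided exact permutation p = 0.639, adjusted p = 0.852 over 20 ratio tests). The ranges of the breeds overlapped over most of their length.

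**Figure D1:**
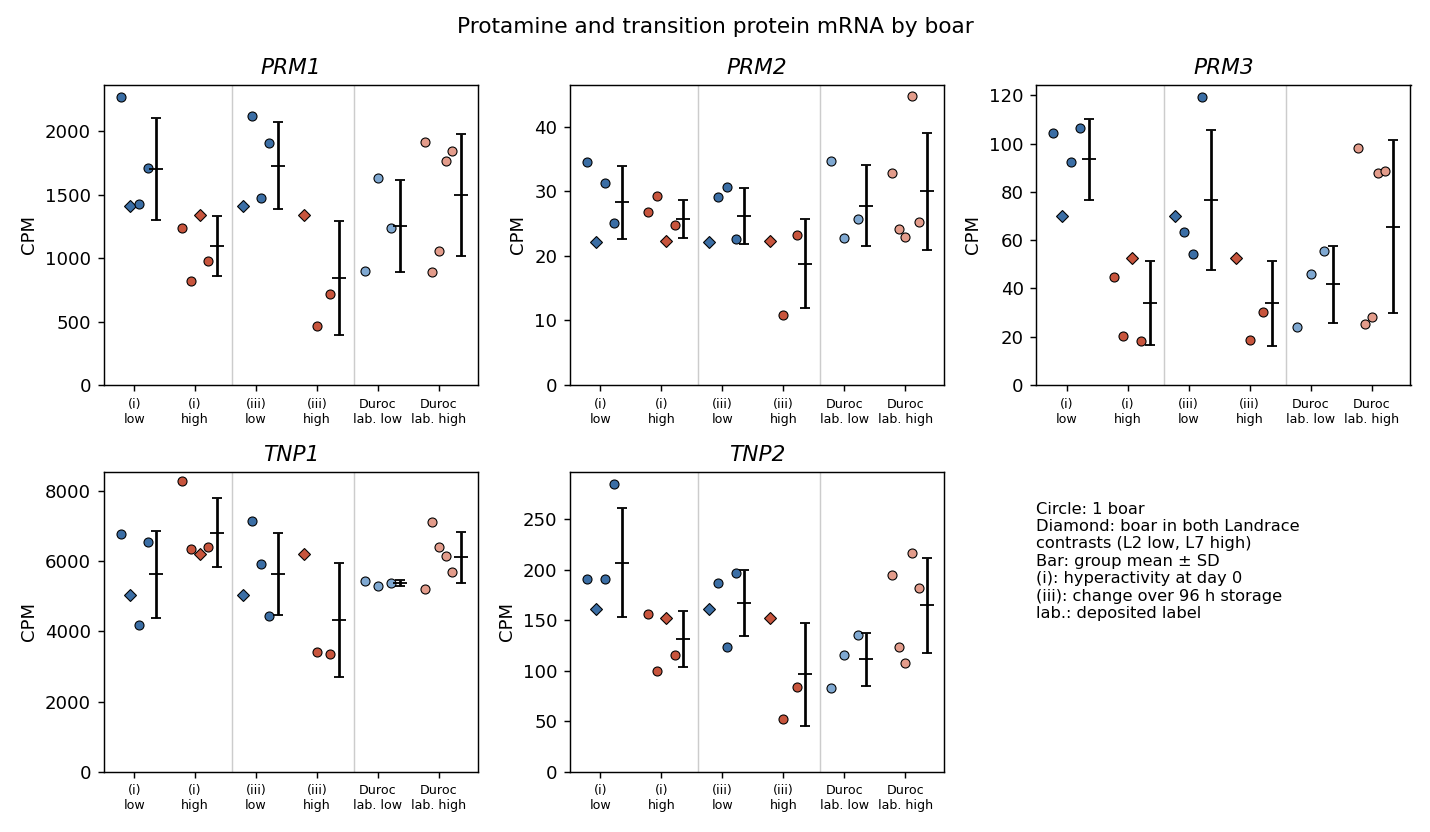
Level of each member in CPM (linear axis from 0) for every boar by hyperactivity group, with the group mean and SD as bars; diamonds mark the boars that both Landrace contrasts share. PRM1, PRM3 and TNP2 sit lower in the 4 high boars of contrast (i) than in the 4 low boars, whereas PRM2 and TNP1 overlap.

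In contrast (i), PRM1, PRM3 and TNP2 were lower in the testes of boars with high hyperactivity, and PRM2 and TNP1 were not called. The direction follows the deposited labels, and the study's mean counts of PRM1 and PRM3 are also lower in the high group. The study's text, however, describes most genes called in this contrast as higher in that group, whereas here 2056 were lower and 626 higher. It names DNLZ as the most raised gene there, although its own DNLZ counts are lower in that group. The cause of this conflict was not tested. PRM3 showed the greatest difference of the 5. Its level was 104.5, 70.2, 92.5 and 106.7 CPM in the low boars L1 to L4 and 44.8, 20.5, 52.8 and 18.1 CPM in the high boars L5 to L8. Every high boar lay below every low boar, and the means were 93.5 ± 16.7 and 34.0 ± 17.4 CPM (SD, n = 4 each). The edgeR fit, which scales the 8 libraries of the contrast by themselves and so need not give the ratio of these means, put PRM3 2.86-fold lower in the high group (log2 fold change -1.52, SE 0.32, adjusted p = 0.0208, quasi-likelihood test). All fold changes with an SE come from such fits.

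PRM1, the main protamine of boar sperm, measured 2270, 1406, 1425 and 1711 CPM in L1 to L4 and 1237, 823, 1340 and 977 CPM in L5 to L8. These groups did not overlap either, although the lowest low boar (L2) and the highest high boar (L7), the shared animals, were close. The level was 1.63-fold lower in the high group (log2 fold change -0.70, SE 0.20, adjusted p = 0.0338).

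TNP2, which in the mouse helps to condense the nucleus before protamines are laid down, fell by a similar amount. It measured 191, 161, 191 and 285 CPM in L1 to L4 and 157, 99.6, 152 and 116 CPM in L5 to L8, again without overlap, and was 1.65-fold lower in the high group (log2 fold change -0.73, SE 0.20, adjusted p = 0.0324). The highest high boar and the lowest low boar differed by less than 5 CPM.

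TNP1 went the other way in value, without passing the test. It measured 6769, 5025, 4171 and 6528 CPM in L1 to L4 and 8262, 6354, 6206 and 6394 CPM in L5 to L8 (log2 fold change 0.21, SE 0.18, adjusted p = 0.389), and the groups overlapped. PRM2 measured 34.6, 22.2, 31.3 and 25.1 CPM against 26.8, 29.2, 22.3 and 24.7 CPM (log2 fold change -0.21, SE 0.17, adjusted p = 0.366), and its groups also overlapped.

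Thus 3 of the 5 members were called lower and 0 higher, where 15.8% of the 12979 genes tested were called lower and 4.82% higher. The same 3 members had a high group wholly below the low group, as did 16.6% of all genes. The median log2 fold change of the members was -0.70, beside 0.03 over all genes tested. By the size of the fold change alone, PRM3 stood at percentile 2.03 of all genes, whereas PRM1 and TNP2 stood at percentiles 18.0 and 17.3.

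These calls rested on few boars. Leaving out L3 or L6 brought the genes called to 1 each over the whole table, and 966 were called without L1, 1481 without L4 and 1228 without L8, against 2682 with all 8 boars. PRM1 was no longer called without L1 (log2 fold change -0.55, adjusted p = 0.0832), L3 (-0.81, 0.0504), L6 (-0.58, 0.0726) or L8 (-0.64, 0.0627). TNP2 lost its call without L1 (-0.78, adjusted p = 0.0557), L3 (-0.80, 0.0565), L4 (-0.58, 0.0558), L6 (-0.61, 0.0712) or L8 (-0.66, 0.0644). PRM3 missed the threshold without L3 (-1.56, adjusted p = 0.0504) or L6 (-1.33, 0.0532) and kept it without any other boar. All 3 stayed below 0 in each case, and without the shared boars L2 and L7 the log2 fold changes were -0.97 for PRM1, -2.0 for PRM3 and -0.98 for TNP2, all called.

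**Figure D2:**
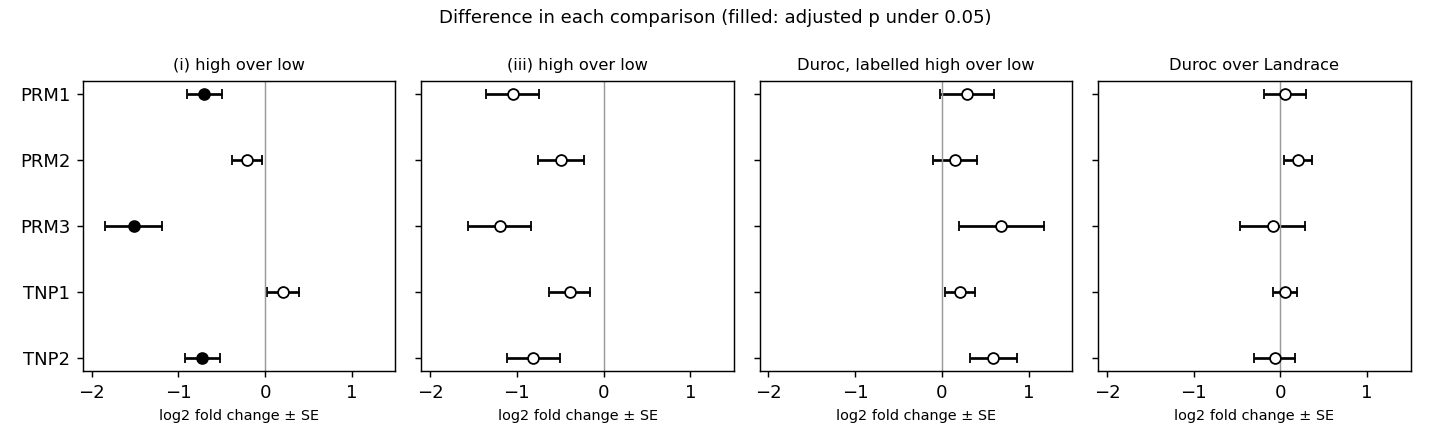
Log2 fold change of each member with its SE in the 4 comparisons; filled points have an adjusted p under 0.05. PRM3, PRM1 and TNP2 are filled in contrast (i) only, and all 5 points lie below 0 in contrast (iii).

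Ratios between members within a library do not depend on library size or scaling, and they separated the groups of contrast (i) in 3 of 5 cases. These cases are not independent, since each holds PRM1 or TNP2, whose levels by themselves did not overlap. Among single genes, 31.4% had groups apart in either direction. The TNP1 to PRM1 ratio was 2.98, 3.57, 2.93 and 3.82 in L1 to L4 and 6.68, 7.72, 4.63 and 6.54 in L5 to L8, thus 1.90-fold higher in the high group with no overlap. The TNP1 to TNP2 ratio was 35.4, 31.2, 21.9 and 22.9 in the low boars and 52.8, 63.8, 40.8 and 55.2 in the high boars, 1.92-fold higher and again without overlap. PRM3 was lower even relative to PRM1: the PRM3 to PRM1 ratio was 0.0461, 0.0499, 0.0649 and 0.0623 in the low boars and 0.0362, 0.0249, 0.0394 and 0.0185 in the high boars, 1.94-fold lower. Each of these 3 ratios reached two-sided exact permutation p = 0.0286, the smallest that 4 against 4 boars allow, but adjusted p = 0.143 over the 20 ratio tests, so none passed.

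The TNP2 to PRM1 ratio did not separate the groups. It averaged 0.120 ± 0.00543 in the high and 0.125 ± 0.0346 in the low boars (SD, n = 4 each, exact permutation p = 0.943, adjusted p = 0.963). The PRM1 to PRM2 ratio was 65.7, 63.4, 45.5 and 68.3 in L1 to L4 and 46.1, 28.1, 60.1 and 39.5 in L5 to L8. It averaged 60.7 ± 10.3 in the low and 43.4 ± 13.3 in the high group, a difference of -0.52 on the log2 scale (exact permutation p = 0.0857, adjusted p = 0.343), and the groups overlapped. Without L6 the difference was -0.33.

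**Figure D3:**
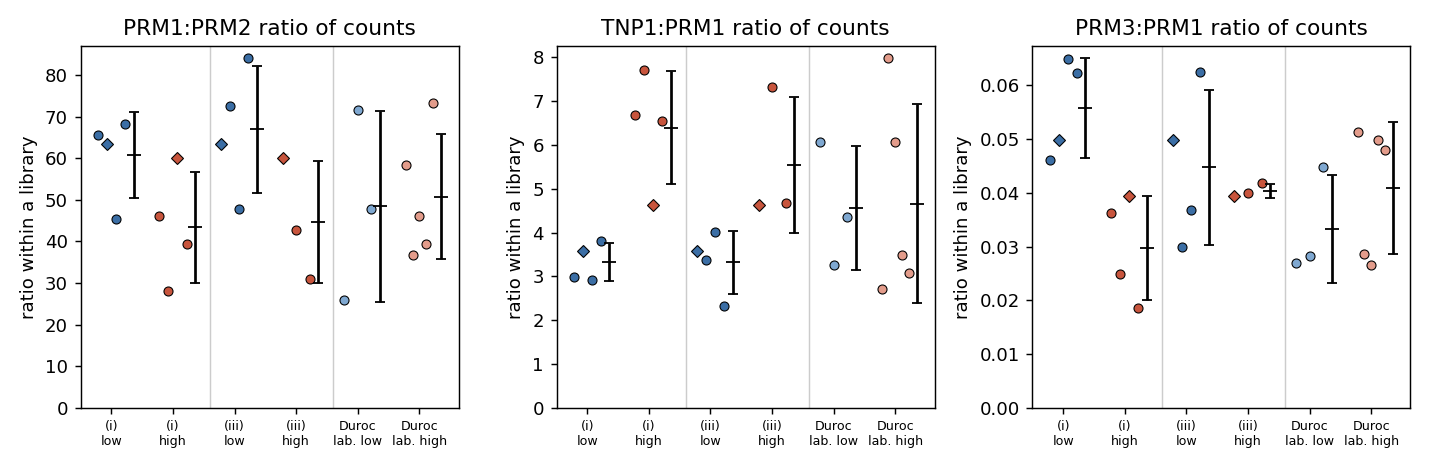
Ratios of raw counts within each library (linear axes from 0) by hyperactivity group, with the group mean and SD; diamonds mark the shared boars L2 and L7. The TNP1 to PRM1 ratio lies at 2.33 to 4.03 in the low and 4.63 to 7.72 in the high Landrace boars of both contrasts, whereas the PRM1 to PRM2 ratios overlap.

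In contrast (iii), all 5 members had lower mean levels in boars whose sperm gained much hyperactivity over storage, but none passed the test. No gene of the 12824 tested did: edgeR's quasi-likelihood test called 0%, with 2540 genes at an unadjusted p under 0.05 (19.8%), while its likelihood ratio test called 64 genes and DESeq2 116. PRM1 measured 1406, 2117, 1471 and 1907 CPM in the low boars L2, L9, L10 and L12 and 1340, 465 and 720 CPM in the high boars L7, L13 and L15. The groups did not overlap, although L2 and L7 differed little, and the log2 fold change was -1.05 (SE 0.31, unadjusted p = 0.00654, adjusted p = 0.24).

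PRM3 measured 70.2, 63.2, 54.2 and 119 CPM in these low boars and 52.8, 18.5 and 30.1 CPM in the high boars, with L7 just below L10 (log2 fold change -1.20, SE 0.36, unadjusted p = 0.00762, adjusted p = 0.24). TNP2 measured 161, 187, 123 and 197 CPM against 152, 52.6 and 84.2 CPM, where L7 lay above L10 (log2 fold change -0.81, SE 0.31, adjusted p = 0.24). TNP1 measured 5025, 7140, 5923 and 4437 CPM against 6206, 3406 and 3363 CPM (log2 fold change -0.39, SE 0.24, adjusted p = 0.345). PRM2 measured 22.2, 29.1, 30.7 and 22.7 CPM against 22.3, 10.8 and 23.3 CPM (log2 fold change -0.49, SE 0.27, adjusted p = 0.307). In all 5 genes the shared boar L7 was closer to the low group than L13 was.

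Hence the high group lay wholly below the low group in 2 of 5 members, where 8.47% of all genes did so, and 3 of 5 were lower at an unadjusted p under 0.05, where 10.3% of all genes were. In addition, the members' median log2 fold change was -0.81, beside 0.00 over all genes. The size of the difference depended on single boars, L7 and L13 above all. Without L7 the log2 fold change was -1.55 for PRM1, -1.67 for PRM3, -1.30 for TNP2, -0.74 for TNP1 and -0.63 for PRM2. Without L13 it was -0.75, -0.90, -0.51, -0.24 and -0.20 in the same order. PRM3 was at its weakest without L12 (-0.89), and TNP1 was -0.24 without L15. No member was called by any method used, and the lowest adjusted p was 0.0596, for PRM1 and PRM3 with DESeq2.

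In contrast (iii), 1 of the 5 ratios separated the groups, where 16.4% of single genes had groups apart in either direction. The TNP1 to PRM1 ratio was 3.57, 3.37, 4.03 and 2.33 in L2, L9, L10 and L12 and 4.63, 7.33 and 4.67 in L7, L13 and L15, 1.66-fold higher in the high group with no overlap (exact permutation p = 0.0286, the smallest possible, adjusted p = 0.143). The PRM3 to PRM1 ratio did not separate these groups: it was 0.0394 to 0.0418 in the high boars, inside the 0.0299 to 0.0625 of the low boars (exact permutation p = 0.771, adjusted p = 0.924). The PRM1 to PRM2 ratio was 63.4, 72.6, 47.9 and 84.1 against 60.1, 42.9 and 30.9, averaging 67.0 ± 15.3 (SD, n = 4) and 44.6 ± 14.7 (SD, n = 3). That difference of -0.61 on the log2 scale did not pass (exact permutation p = 0.114, adjusted p = 0.381), and L7 lay within the low range. Without L15 it was -0.37. TNP1 to TNP2 gave exact permutation p = 0.2 (adjusted p = 0.444) and TNP2 to PRM1 p = 0.171 (adjusted p = 0.444).

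Among the Duroc boars no member was called by label, and neither was any of the 13043 genes tested (0% by edgeR's quasi-likelihood test, its likelihood ratio test and DESeq2; 1.21% at an unadjusted p under 0.05). PRM1 measured 1913, 891, 1057, 1767 and 1845 CPM in D1 to D5, labelled high, and 898, 1627 and 1235 CPM in D6, D7 and D9, labelled low (log2 fold change 0.29, SE 0.31). PRM3 measured 98.4, 25.4, 28.0, 87.9 and 88.7 CPM against 24.1, 45.8 and 55.4 CPM (log2 fold change 0.68, SE 0.49). The labelled high group thus held the highest values of both genes and low ones as well, with D2 and D3 near D6.

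TNP2 measured 194, 123, 108, 217 and 182 CPM against 83.2, 115 and 135 CPM (log2 fold change 0.59, SE 0.28), with an unadjusted p of 0.0535. TNP1 was the steadiest, at 5203, 7111, 6404, 6147 and 5679 CPM against 5442, 5289 and 5371 CPM (log2 fold change 0.21, SE 0.17). PRM2 measured 32.8, 24.2, 23.0, 44.8 and 25.2 CPM against 34.8, 22.7 and 25.8 CPM (log2 fold change 0.15, SE 0.25). The adjusted p was 1.0 for every member, the groups overlapped in all 5 genes (1.3% of all genes did not overlap), and the members' median of 0.29 stood beside 0.04 over all genes. Without D5, the only boar whose label and study grouping match, the log2 fold changes were 0.21 for PRM1, 0.20 for PRM2, 0.55 for PRM3, 0.23 for TNP1 and 0.56 for TNP2, and the study's grouping of these boars would give the same sizes with the opposite sign.

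The Duroc ratios differed widely between boars, and none passed by label. The PRM1 to PRM2 ratio was 58.3, 36.8, 46.0, 39.5 and 73.3 in D1 to D5 and 25.8, 71.5 and 47.9 in D6, D7 and D9 (exact permutation p = 0.786, adjusted p = 0.924). The TNP1 to PRM1 ratio was 2.72, 7.98, 6.06, 3.48 and 3.08 against 6.06, 3.25 and 4.35 (exact permutation p = 0.911, adjusted p = 0.963). The other ratios differed more by label, still with overlap: on the log2 scale by 0.32 for TNP2 to PRM1 (exact permutation p = 0.179, adjusted p = 0.444), 0.28 for PRM3 to PRM1 (p = 0.268, adjusted p = 0.536, exact permutation) and -0.37 for TNP1 to TNP2 (p = 0.321, adjusted p = 0.545, exact permutation). D2, D3 and D6, the boars with the highest TNP1 to PRM1 ratios, also had the lowest PRM1 and PRM3 levels of the breed.

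Between the breeds no member differed beyond the spread between boars. The means were 1375 ± 540 CPM in Landrace and 1404 ± 432 CPM in Duroc for PRM1, 25.6 ± 5.93 and 29.2 ± 7.76 for PRM2, 61.2 ± 35.4 and 56.7 ± 31.0 for PRM3, 5691 ± 1494 and 5831 ± 670 for TNP1, and 154 ± 60.1 and 145 ± 47.2 for TNP2 (SD, n = 13 and 8). The log2 fold changes of Duroc over Landrace lay between -0.09 (PRM3, SE 0.37) and 0.20 (PRM2, SE 0.16), with adjusted p from 0.821 to 0.998, and all ranges overlapped (0.282% of all genes had ranges apart). Of the 13126 genes tested, 2.88% were called, so the count of 0 of 5 members is near that background. The SE of PRM3 leaves room for a breed difference that these libraries could not show.

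Across boars, PRM1 and PRM3 levels went together. Over the 21 libraries their log2 levels correlated with Pearson r = 0.874 and Spearman rho = 0.855 (permutation p = 1e-05 for both, the smallest that 100000 resamples can give; adjusted p = 0.00012 over 12 relations), and r was 0.892 without L13 and L15, the boars farthest from the median of PRM1. The relation held within 13 Landrace (r = 0.861, rho = 0.852; permutation p = 0.00013 and 0.0004, adjusted p = 0.00078 and 0.0024) and within 8 Duroc boars (r = 0.942, rho = 0.952; exact permutation p = 0.00206 and 0.00114, adjusted p = 0.00824 and 0.00456). Without the 2 farthest boars of each breed r was 0.856 and 0.88. These levels share 1 scaling factor per library. The relation was not particular to this pair. Over the 21 libraries other genes followed each member more closely, such as EIF3K with PRM1 (r = 0.932) and SNRPD2 with PRM3 (r = 0.977).

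PRM1 and PRM2, by contrast, were related through a pair of boars. Their r of 0.572 over 21 libraries (permutation p = 0.00779, adjusted p = 0.0234; rho = 0.338, p = 0.135, adjusted p = 0.259) dropped to 0.197 without L13 and L15. Within Landrace r was 0.686 (rho 0.473; permutation p = 0.0131 and 0.105, adjusted p = 0.0314 and 0.259) and became 0.193 without these boars. Within Duroc it was 0.252 (rho 0.238; exact permutation p = 0.556 and 0.582, adjusted p = 0.607 and 0.635), and 0.507 without D2 and D6.

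TNP1 did not track the other abundant member. PRM1 and TNP1 gave r = 0.395 and rho = 0.161 over all boars (permutation p = 0.0757 and 0.482, adjusted p = 0.101 and 0.578), which became -0.169 without L13 and L15. Their r was 0.541 within Landrace (rho 0.429; permutation p = 0.0556 and 0.146, adjusted p = 0.101 and 0.259; -0.077 without L13 and L15) and -0.488 within Duroc (rho -0.571; exact permutation p = 0.216 and 0.151, adjusted p = 0.259 for both; -0.436 without D2 and D6). TNP1 and TNP2 gave r = 0.417 and rho = 0.17 over all boars (permutation p = 0.0605 and 0.459, adjusted p = 0.101 and 0.578; r = -0.0753 without L13 and L15). Within Landrace the pair gave r = 0.519 and rho = 0.368 (permutation p = 0.0685 and 0.216, adjusted p = 0.101 and 0.324; r = -0.138 without L13 and L15), and within Duroc r = -0.0535 and rho = -0.143 (exact permutation p = 0.894 and 0.752, which adjustment left as they were; r = 0.468 without D2 and D3).

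Set against the summed counts of the late spermatid markers, the members kept the same order of change in contrast (i). PRM3 was 3.37-fold lower in the high boars on this scale, without overlap (exact permutation p = 0.0286, adjusted p = 0.381 over 20 tests). PRM1 and TNP2 were 1.74-fold and 1.75-fold lower in mean log2 ratio, with overlap (exact permutation p = 0.0571, adjusted p = 0.381 for each). PRM2 was 1.21-fold lower (p = 0.229, adjusted p = 0.48, exact permutation) and TNP1 1.10-fold higher (p = 0.314, adjusted p = 0.572, exact permutation). In contrast (iii) the fold differences were 1.68 for PRM1, 1.79 for PRM3, 1.42 for TNP2, 1.10 for PRM2 and 1.01 for TNP1, all lower in the high boars, with exact permutation p from 0.0857 to 0.943 and adjusted p from 0.429 to 0.943.

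**Figure D4:**
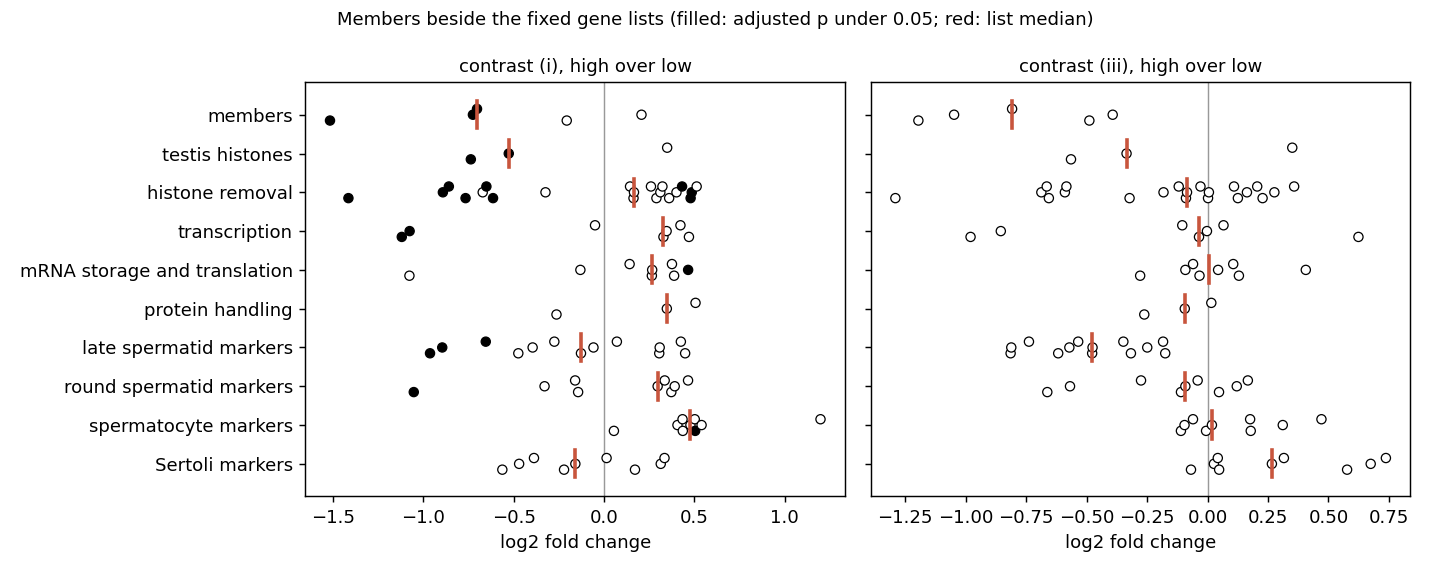
Log2 fold change, high over low, of each gene in 10 lists for contrasts (i) and (iii) (1 circle a gene, filled where adjusted p was under 0.05; red bar, list median). In contrast (i) the members' median is -0.70 and that of spermatocyte markers 0.48, and in contrast (iii) no circle is filled.

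Other genes of histone replacement moved in both directions in contrast (i). Of the histone genes with a testis role, 3 of 11 had an identifier; 2 were lower and 0 higher. H1-7, a linker histone of spermatids, averaged 151 ± 9.46 CPM in the low and 95.0 ± 31.5 CPM in the high boars (log2 fold change -0.74, adjusted p = 0.0357), and H2AZ1, a histone variant of many tissues, was lower by -0.53 on the log2 scale (adjusted p = 0.0438). Of 21 genes that modify or evict histones, 6 were lower, 3 higher and 12 not called, with a median of 0.17. TSSK6, a spermatid kinase needed for the exchange of histones for protamines in mice, averaged 10.2 ± 1.95 CPM in the low and 4.02 ± 1.36 CPM in the high boars (log2 fold change -1.41, adjusted p = 0.0208). SIRT1, a histone deacetylase, rose (log2 fold change 0.48, adjusted p = 0.0435). Named here after their values were seen, CHD5, CDYL, KAT8, NUTM1 and DOT1L were the other lower genes, and BRDT, the reader of acetylated histones in spermatids, and EPC2 the other higher ones.

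Of 7 transcription factors of spermatids, 2 were lower and 5 not called. The lower ones were ZMYND15, a repressor of spermatid genes, with a log2 fold change of -1.12, and RFX2, an activator of genes of spermatids and cilia, with -1.08 (adjusted p = 0.0208 for both). The list's median was 0.33, with 3 genes higher and 2 lower at an unadjusted p under 0.05. Of 8 genes that store or translate spermatid messenger RNA, CPEB2, which binds polyadenylation elements, was the only gene called, 0.46 higher on the log2 scale (adjusted p = 0.0436). TARBP2 and YBX2, proteins that bind protamine messenger RNA in the mouse and are named after their values were seen, had log2 fold changes of -1.08 (adjusted p = 0.0548) and -0.13 (adjusted p = 0.441). None of 3 tested genes for kinases and a phosphatase of spermatids was called. The import gene of the list, IPO4, was at 0 in every library and so was not tested. CAMK4, which phosphorylates protamine 2, had -0.26 (adjusted p = 0.176) and PPP1CC, a phosphatase of spermatids, 0.51 (adjusted p = 0.0514). The neighbours of the chromosome 3 cluster were not called either: the log2 fold change was -0.32 for CLEC16A (adjusted p = 0.0985) and -0.11 for RMI2 (adjusted p = 0.759), and SOCS1 was below the filter on low counts.

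In contrast (iii) no gene of these lists was called. TSSK6 had a log2 fold change of -1.29, ZMYND15 -0.98, RFX2 -0.85 and H1-7 -0.56 (adjusted p from 0.24 to 0.247), beside medians of -0.08 for the 21 histone removal genes and -0.04 for the 7 transcription factors. Nor were any called among the Duroc boars by label or between the breeds.

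Some markers of testis cell types differed between the groups, and their part in the differences of the members was not tested. The counts called in contrast (i) stand beside 15.8% of all genes called lower and 4.82% called higher. In contrast (i), 1 of 9 tested spermatocyte markers was called, DMC1 (log2 fold change 0.50, adjusted p = 0.0308), and the summed level of the 10 with an identifier was 1065 to 1398 CPM in the low and 1500 to 2270 CPM in the high boars, without overlap. Late spermatid markers summed to 13235 to 17104 CPM in the low and 14901 to 20508 CPM in the high boars, with 3 of 13 called lower, among them TSSK2 (-0.96, adjusted p = 0.0223) and ODF2 (-0.65, adjusted p = 0.039). Of 9 round spermatid markers 1 was lower, ACR, the protease of the acrosome (-1.05, adjusted p = 0.0208). The median of that list was 0.30, with 3 genes higher and 1 lower at an unadjusted p under 0.05. Its summed level was 2087 to 2646 CPM in the low and 2195 to 3062 CPM in the high boars. Of 5 peritubular markers DES (-1.50, adjusted p = 0.0255) and MYH11 (-1.17, adjusted p = 0.0392) were lower, as was TIE1 (-1.29, adjusted p = 0.0264) of 4 endothelial markers. No tested marker of spermatogonia (5), Sertoli cells (9), Leydig cells (7) or macrophages (2) was called. The Sertoli gene AMH was at 0 in every library. Between the breeds, 3 markers were called, named after their values were seen: CATSPER3 of 9 round spermatid and KIT of 5 spermatogonia markers were lower in Duroc (log2 fold change -0.60 and -1.40, adjusted p = 0.0102 and 0.000678), and GATA4 of 9 Sertoli markers was higher (0.74, adjusted p = 0.00692).

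In contrast (iii) the late spermatid markers themselves were lower: they summed to 16250 to 18720 CPM in the low and 9543 to 15852 CPM in the high boars, without overlap, and all 13 had a log2 fold change below 0, with a median of -0.48, though none was called. Library measures moved with the groups too, and their part was not tested. In contrast (i), 7.53% to 7.92% of reads aligned to more than 1 place in the low and 5.83% to 7.20% in the high boars, and the TMM scaling factors were 1.03 to 1.18 in the low and 0.822 to 0.986 in the high boars. In contrast (iii), mitochondrial genes took 1.10% to 1.97% of counts in the low and 2.0% to 4.02% in the high boars, with L13 the highest.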

How the data were processed

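Testis RNA libraries (TruSeq stranded mRNA) of 13 Landrace and 8 Duroc boars were analysed. Per the labels and the study's methods, the authors trimmed 100 bp single reads with Trimmomatic 0.36, aligned them with STAR to Sscrofa 11.1 and counted them per Ensembl gene by strand with HTSeq. The deposited values are raw counts, without normalization, for 25880 genes. Of a library's reads, 29.4% to 39.0% were not assigned to a gene and were left out. Reads that fell in no gene made up 21.5% to 30.2%, and the others left out were ambiguous or aligned to several places. Symbols came from a RefSeq table and the study's gene list (14861 identifiers named).

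Tests covered the genes that reached 1 CPM in 4 or more libraries (8 or more in the breed comparison) and were run with edgeR 4.0.16 (R 4.3.3), TMM scaling and the quasi-likelihood test; p-values were adjusted by Benjamini-Hochberg over all genes tested, at a threshold of 0.05. P-values measure the spread between boars. Ratios of counts within a library were compared by two-sided exact permutation tests. The SE is the log2 fold change divided by the square root of its F statistic. Levels per kb used the RefSeq gene span, not the planned coding length, which was not used here. On simulated counts with 200 genes changed by 2 on the log2 scale, 195, 190, 176 and 195 were called in contrasts (i) and (iii), the Duroc and the breed comparison. No pair of libraries of a group agreed within sampling noise (chi-square per degree of freedom 48.8 or more). Depth gives each member at least 919 reads per library.

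Members and gene lists were chosen with earlier results of these data known. From each list the text names the genes with the lowest and highest log2 fold change in contrast (i) among those called, or among those tested where none was, and for each member the 3 genes most like it. Alternatives were the likelihood ratio test, DESeq2 1.42.0, other scaling and filters, omission of mitochondrial genes or of shared boars, and omission of each boar in turn. Sequences were not used here.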

Additional observations from a re-analysis of the deposited data

Results flagged for a closer look

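The TNP1 level of boar L5 stood apart from the other high boars of contrast (i): 8262 CPM, against 6206 to 6394 CPM in the other 3, a gap of 0.909 of the group's range. It was the 1 value so marked among 50 groups of 4 to 10 samples, where chance alone gives about 2.5 (1 in 20). Without L5 the log2 fold change of TNP1 in contrast (i) was 0.12, and it was called neither with nor without this boar.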

How the results depend on the processing

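Under the likelihood ratio test, DESeq2, other scaling or filters, and without mitochondrial genes or shared boars, each member kept its direction and its side of the threshold in contrasts (i) and (iii) and by Duroc label. In the breed comparison TNP1 reversed with day 0 boars only (-0.069). Genes called in contrast (i) were 626 higher and 2056 lower, 104 and 2458 with library totals only, which moved the median of all genes from 0.03 to -0.12, 1458 and 2464 with DESeq2, and 59 and 1756 without L2 and L7. Contrast (iii) called 64 genes by the likelihood ratio test, 116 by DESeq2, 1 without a filter and 1 with filterByExpr; the breeds 204 with day 0 boars only, against 378. The cause was not tested. Omission of single boars gave 1 to 3764 genes in contrast (i), 0 to 1 in contrast (iii) (1 without L7, 1 without L10) and 0 to 2 by Duroc label (2 without D9). The log2 fold changes then ranged in contrast (i) from -0.84 to -0.55 (PRM1), -1.83 to -1.30 (PRM3) and -0.88 to -0.58 (TNP2). There PRM2 ranged from -0.36 to -0.11 and TNP1 from 0.056 to 0.29. By Duroc label they ranged from 0.080 to 0.50 (PRM1), -0.036 to 0.30 (PRM2) and 0.39 to 1.0 (PRM3). There TNP1 ranged from 0.16 to 0.26 and TNP2 from 0.40 to 0.81. Between breeds they ranged from -0.035 to 0.14 (PRM1), -0.26 to 0.035 (PRM3), -0.0017 to 0.10 (TNP1) and -0.17 to 0.046 (TNP2). Log2 ratio differences ranged in contrast (i) from -0.69 to -0.33 (PRM1:PRM2), 0.84 to 1.07 (TNP1:TNP2) and -1.11 to -0.75 (PRM3:PRM1). There TNP1:PRM1 ranged from 0.83 to 1.08 and TNP2:PRM1 from -0.19 to 0.14. In contrast (iii) they ranged from -0.85 to -0.37 (PRM1:PRM2), -0.27 to 0.086 (PRM3:PRM1) and 0.51 to 0.84 (TNP1:PRM1). There TNP1:TNP2 ranged from 0.26 to 0.66, and fewer boars allow no exact p under 0.0667. By Duroc label they ranged from -0.25 to 0.48 (PRM1:PRM2) and -0.27 to 0.18 (TNP1:PRM1). There TNP1:TNP2 ranged from -0.53 to -0.16, PRM3:PRM1 from 0.14 to 0.51 and TNP2:PRM1 from 0.15 to 0.46. Between breeds they ranged from -0.19 to 0.021 (PRM1:PRM2) and -0.14 to 0.083 (TNP1:PRM1). No paired analysis was possible because the numbers in the labels name boars and pair none of them.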

Other observations

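Each member was set beside the 13099 other genes that were tested in the breed comparison and detected in all 21 libraries, by the Pearson r of log2 CPM over these libraries, each of which has 1 scaling factor, and the 3 genes with the highest r are given as a description. PRM3 had the closest companions: C19orf71 (r = 0.981), ZNRF4, which encodes a ubiquitin ligase of the testis (r = 0.979), and SNRPD2, a core protein of the spliceosome (r = 0.977). ZNRF4 ranged from 7.18 to 60.6 CPM over the boars, and SNRPD2 from 12.5 to 60.6 CPM. For PRM1 they were EIF3K, a subunit of a translation initiation factor (r = 0.932), C20orf141 (r = 0.921) and TIMM17A, part of the mitochondrial import machinery (r = 0.921).

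For TNP2 the 3 were the unnamed gene ENSSSCG00000038790 (r = 0.911), CCDC188 (r = 0.91) and CELA2A, an elastase (r = 0.904). TNP1 was closest to TPPP2, which encodes a tubulin-binding protein (r = 0.885), the unnamed gene ENSSSCG00000035908 (r = 0.862) and IQCF1 (r = 0.85). TPPP2 was itself abundant, at 855 to 2051 CPM. PRM2 had the weakest likeness: H1-8, a linker histone of oocytes that here had at most 1.78 CPM (r = 0.814), DKKL1, an acrosomal protein (r = 0.812), and the kinase PRKCD (r = 0.795). No gene was among the 3 closest of more than 1 member.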
